A study of Mus musculus with 8 samples.

Results

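The 10 genes described here make up the core of MHC class I antigen presentation: H2-K1, H2-D1, B2m, Tap1, Tap2, Tapbp, Psmb8, Psmb9, Psmb10 and Nlrc5. They were chosen by symbol, all 10 were found among the 24421 gene symbols of each count table, and all 10 were among the 12623 genes with enough counts to be tested. RNA-seq was run on 4 libraries of mouse leukemic bone marrow cells, 2 from Ikzf2 WT cells (source named as Ikzf2f/f mice) and 2 from Ikzf2 KO cells (source named as Ikzf2Δ/Δ mice). Both groups were of the C57BL/6 strain and carried the leukemia oncogene MLL-AF9. Both were frozen, thawed and then sorted for high surface c-KIT, the stem cell factor receptor that immature blood cells carry. The genotypes differ in Ikzf2, which encodes the transcription factor Helios. How the deletion was made, how old the animals were and whether the 2 libraries of a group came from separate mice is not given in the sources used here. What the p-values measure is thus the spread among these 4 libraries. Whether the spread between the WT libraries is technical was not tested. Some genes differed widely there, such as Batf3 (339 and 0 counts) and S100a9 (2193 and 13576). Others were close, such as Tap1 (2262 and 2174). The KO libraries differed in sex-linked genes as cells of a female and a male would, and so probably came from separate mice. Those values are given with the depths. A further 4 ATAC-seq samples are named in the series and were not analysed here.

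Class I molecules show fragments of the cell's own proteins to CD8 T cells. Proteins are cut by the proteasome, whose interferon-inducible subunits replace the constitutive ones, and the peptides are pumped into the endoplasmic reticulum by the TAP transporter. There tapasin, the product of Tapbp, helps load them onto a heavy chain paired with beta-2 microglobulin. NLRC5 is the transactivator that acts at class I promoters, and interferon gamma induces most of the pathway.

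The members did not differ between KO and WT cells in one common direction. Transcripts of Tap2, a subunit of the peptide transporter, and of Psmb8, an immunoproteasome subunit, were lower in each KO library than in either WT library, with mean levels at 45.4% and 56.3% of WT. Tap1 and Psmb9, which lie beside them on chromosome 17, were also lower in both KO libraries, by smaller amounts. The heavy chains H2-K1 and H2-D1 and their partner B2m were highest in KO replicate 1 and close to WT in KO replicate 2. Tapbp and Psmb10 had log2 fold changes within 0.1 of 0, and Nlrc5 was scarce in every library. Over the 10 members the median log2 fold change was 0.0027, beside -0.0043 over all 12623 genes.

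Start regions are shown for Tap1 and Psmb9 of the lower block and for B2m and H2-D1. They differ in some, but not all, of their matches to sites that class I regulators are known to bind. Tap2 and Psmb8, the lower members with the larger differences, are not shown. The first is the 225-base stretch between Psmb9 and Tap1, which are transcribed away from each other (chr17:34187331-34187555, plus strand). The others are the 250 bases before the start of B2m (chr2:122147437-122147686, plus strand) and H2-D1 (chr17:35262844-35263093, plus strand). Sequences are from RefSeq, build GRCm38.p6, 5′ to 3′, with matches to the searched motifs in capitals.
Tap1 and Psmb9: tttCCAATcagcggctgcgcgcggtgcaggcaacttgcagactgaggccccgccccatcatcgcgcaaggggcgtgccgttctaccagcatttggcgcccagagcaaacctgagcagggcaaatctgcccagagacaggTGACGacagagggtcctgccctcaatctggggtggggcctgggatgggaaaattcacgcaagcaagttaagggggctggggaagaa
B2m: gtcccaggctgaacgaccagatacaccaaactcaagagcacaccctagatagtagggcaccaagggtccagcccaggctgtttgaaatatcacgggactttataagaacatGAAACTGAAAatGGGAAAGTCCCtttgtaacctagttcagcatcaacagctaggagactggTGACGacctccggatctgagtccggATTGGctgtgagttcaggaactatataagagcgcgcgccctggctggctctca
H2-D1: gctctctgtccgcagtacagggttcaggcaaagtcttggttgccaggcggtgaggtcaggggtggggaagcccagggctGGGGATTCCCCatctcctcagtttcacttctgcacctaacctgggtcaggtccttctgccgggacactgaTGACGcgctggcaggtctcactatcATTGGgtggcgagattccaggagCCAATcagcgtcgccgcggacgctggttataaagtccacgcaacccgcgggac

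The motifs reported here, each searched on both strands, were an interferon-stimulated response element (GAAA, any 2 bases, GAAA), a kappa B site (GGGA, any 4 bases, CC), the Y box bound by NF-Y (ATTGG) and the core of the X2 box bound by CREB factors (TGACG). Promoter windows, of 250 bases before and 50 after the start, were at hand for 8 of the 10 members, all but Tap2 and Nlrc5. A kappa B match lay in the windows of B2m, H2-K1 and H2-D1, as in 20.7% of all 32851 windows. Matches on opposite strands can share most of their bases, as the kappa B matches do in the printed sequences of B2m and H2-D1. The response element matched in B2m alone of the 8, and in 3.44% of all windows. An X2 core was in the windows of 5 members and 20.8% of all, and a Y box in 6 members and 37.4% of all. Tap1 and Psmb9 have overlapping windows, and their X2 core and Y box are the same bases, counted for each gene. The windows of Psmb8 and Psmb10 held none of the motifs reported here. In B2m, H2-K1 and H2-D1 the Y box began 25 bases downstream of the start of the X2 core, on the same strand. This spacing was found in 31 of the 32851 windows (0.0944%), belonging to 27 genes, 3 of them members. The spacing was taken from these 3 members before it was counted over all windows, so their matches were fixed in advance. A match describes letters in the window and does not show that a factor binds there.

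Levels are given as CPM, a gene's count divided by its library's TMM-scaled total count and multiplied by the customary fixed factor. As exon lengths were not at hand, levels are compared between libraries and not between genes. In bulk RNA, fewer cells that express a gene and less RNA per cell cannot be told apart. Gene counts came to 16006081 to 19286090 per library, so that a count of 3 equals 0.150 to 0.186 CPM. Ikzf2 itself, the gene deleted, stood at 283.5 and 271 CPM across WT, against 10.9 and 26.5 CPM across KO. Of 8 listed leukemic progenitor markers 0 were under 1 CPM in every library. By log2 fold change 3 of them were above 0 and 5 below. Among them Kit ranged from 215.6 to 376.1 CPM and Hoxa9 from 279.6 to 333.6 CPM over the 4 libraries. Mpo, a granule enzyme gene of myeloid precursors, was at 285.9 and 343 CPM in WT but 7073 and 4311 CPM in KO. KO replicate 1 stood apart in sex-linked genes, with Xist at 832.6 CPM against 0.352 to 0.600 CPM in the other libraries and Ddx3y at 0.0619 CPM against 70.1 to 109.5 CPM. KO replicate 1 thus had the pattern of female cells and the other libraries that of male cells. Sex cannot be told apart from whatever else sets that library off. Results on the members that rest on KO replicate 1 are given with and without it.

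Across all genes edgeR's quasi-likelihood test called 0 of 12623 (0%) after adjustment (threshold 0.05) and put 968 at a raw p under 0.05. DESeq2's Wald test called 352 genes, with 1.07% of the genes it tested lower and 1.56% higher in KO, and limma-voom called 0 and put 935 at a raw p under 0.05. Among the members, edgeR called 0 with 2 at an unadjusted p under 0.05, DESeq2 called 2, both lower, and voom called 0. Both KO libraries lay below both WT libraries for 4 of the 10 members and for 19.1% of all genes tested. They lay above for 3 of the 10 and for 18.1% of all. The 4 lower members were on that side under each of 3 scalings, while the 3 higher ones (B2m, H2-K1 and Nlrc5) overlapped with WT when library sizes alone were used.

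**Figure D1:**
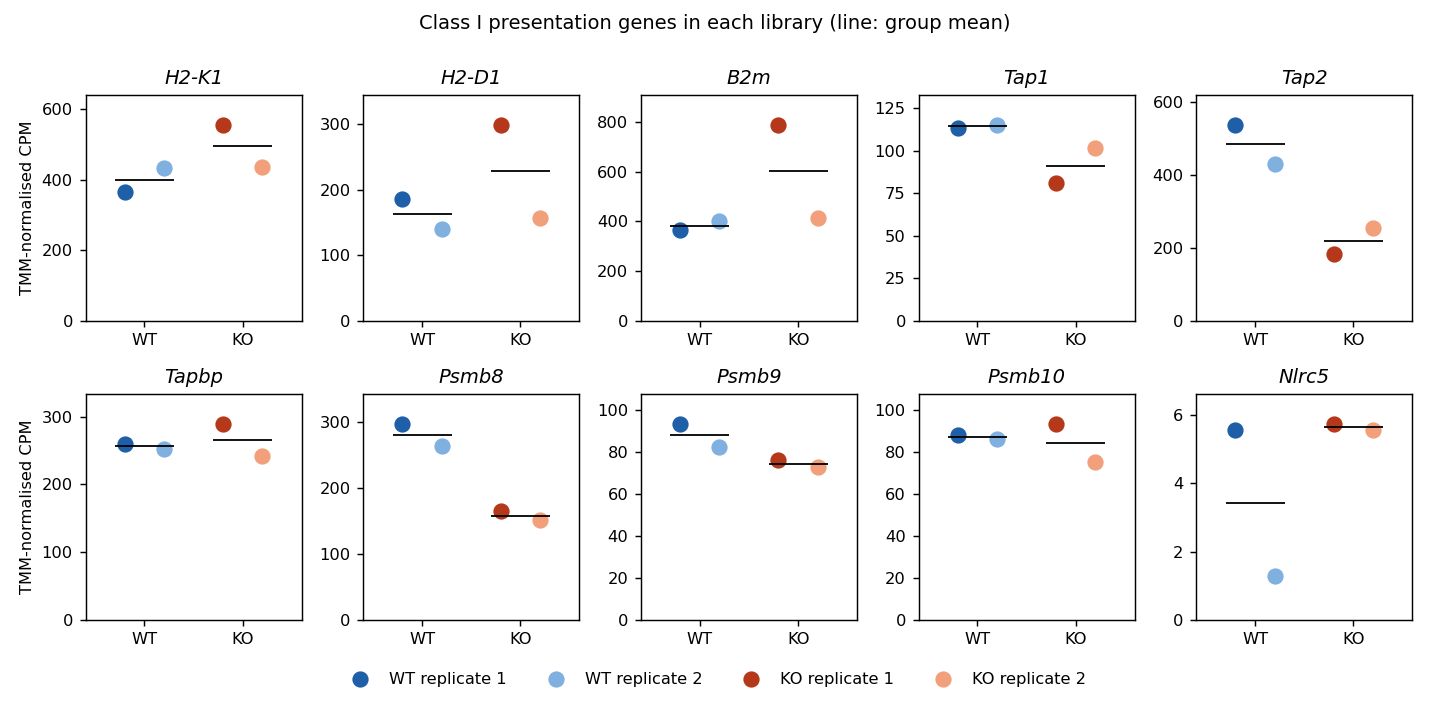
Level of each of the 10 genes in each library, in TMM-normalised CPM on a linear axis from 0. Points are libraries and black lines are group means. Tap2 and Psmb8 are lower in both KO libraries, at 184 to 256 and 152 to 164.6 CPM against 430.8 to 539.2 and 264 to 298 CPM in WT, while B2m stands out in KO replicate 1 at 789.3 CPM.

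The peptide transporter is a dimer of the ATP-binding cassette proteins TAP1 and TAP2. Tap2 (chromosome 17, 34204479 to 34216321) reached 539.2 CPM in WT replicate 1 and 430.8 in WT replicate 2, against 184 in KO replicate 1 and 256 in KO replicate 2. The groups did not overlap, and the highest KO value lay well under the lowest WT value. On the log2 scale this was a difference of -1.14 (SE 0.27, n = 2 per group), or 2.20-fold lower. Tap2 fell in DESeq2's test (adjusted p = 0.019) but not in edgeR's (adjusted p = 0.444). In fits lacking 1 library, DESeq2 called it only without KO replicate 2 (adjusted p = 0.00142). Its adjusted p was 0.779 when WT replicate 1 was dropped, 0.143 when WT replicate 2 was, and 0.189 when KO replicate 1 was, while the edgeR fold change ran from -1.40 to -0.92.

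Tap1 (chromosome 17, 34187556 to 34197225) had 113.1 and 115.3 CPM across WT, against 80.7 and 101.3 CPM across KO. Both KO values were lower, with KO replicate 2 closer to WT. The log2 fold change of -0.33 (SE 0.21) passed neither edgeR (adjusted p = 0.822) nor DESeq2 (adjusted p = 0.960), and it was -0.17 without KO replicate 1 and -0.50 without KO replicate 2. Within the libraries the balance of the 2 transporter genes differed between the groups. The count ratio of Tap2 to Tap1 was 4.77 and 3.74 in WT and 2.28 and 2.53 in KO. This ratio and that of Psmb8 to Psmb9 below were picked after their values were seen.

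The immunoproteasome genes Psmb8, Psmb9 and Psmb10 encode the catalytic subunits that take the place of the constitutive subunits of Psmb5, Psmb6 and Psmb7. Psmb8 (chromosome 17, 34198195 to 34201454) had 298 and 264 CPM across WT, against 164.6 and 152 CPM across KO. The KO libraries lay close together and far below WT. On the log2 scale this was a difference of -0.83 (SE 0.21, n = 2 per group), or 1.78-fold lower. Psmb8 fell in DESeq2's test (adjusted p = 0.0387) but not in edgeR's (adjusted p = 0.444). DESeq2 called it in 0 of the 4 fits that lacked a library. Its adjusted p there was 0.9998 and 0.568 when WT replicate 1 or WT replicate 2 was dropped, and 0.175 and 0.178 when KO replicate 1 or KO replicate 2 was dropped. Its edgeR fold change stayed between -0.90 and -0.74 in those fits.

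Psmb9 (chromosome 17, 34182030 to 34187330) had 93.6 and 82.4 CPM across WT, against 76.1 and 72.8 CPM across KO. The groups did not overlap, but the gap between them was smaller than the difference within WT. Its log2 fold change of -0.24 (SE 0.19) passed neither test. Psmb10 (chromosome 8, 105935728 to 105938392) had 87.9 and 86.1 CPM across WT, against 93.5 and 75.0 CPM across KO, on both sides of WT. Its log2 fold change was -0.046 (SE 0.20) and turned to 0.10 without KO replicate 2.

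A ratio of 2 genes within a library does not depend on how libraries are scaled, although its size depends on the genes' lengths. Relative to its constitutive counterpart Psmb5, Psmb8 had count ratios of 12.1 and 10.5 in WT and 8.47 and 9.35 in KO. The ratio of Psmb9 to Psmb6 was 0.830 and 0.791 in WT and 0.656 and 0.719 in KO. That of Psmb10 to Psmb7 was 0.673 and 0.688 in WT and 0.621 and 0.644 in KO. Each of the 3 ratios was thus lower in both KO libraries, by 0.34, 0.24 and 0.11 on the log2 scale. In a two-sided exact permutation test each had p = 0.333 (0.333 after Benjamini-Hochberg adjustment over the 3), the smallest that 2 against 2 libraries can give. Psmb5 was itself at 24.7 and 25.2 CPM across WT, against 19.4 and 16.3 CPM across KO, and passed neither edgeR nor DESeq2. The ratio of Psmb8 to Psmb9 was 3.18 and 3.20 in WT and 2.16 and 2.09 in KO, close within groups and far apart between them. The ratio of B2m to H2-K1, also picked afterwards, was 0.998 and 0.927 in WT and 1.42 and 0.946 in KO, so that the groups overlapped.

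**Figure D2:**
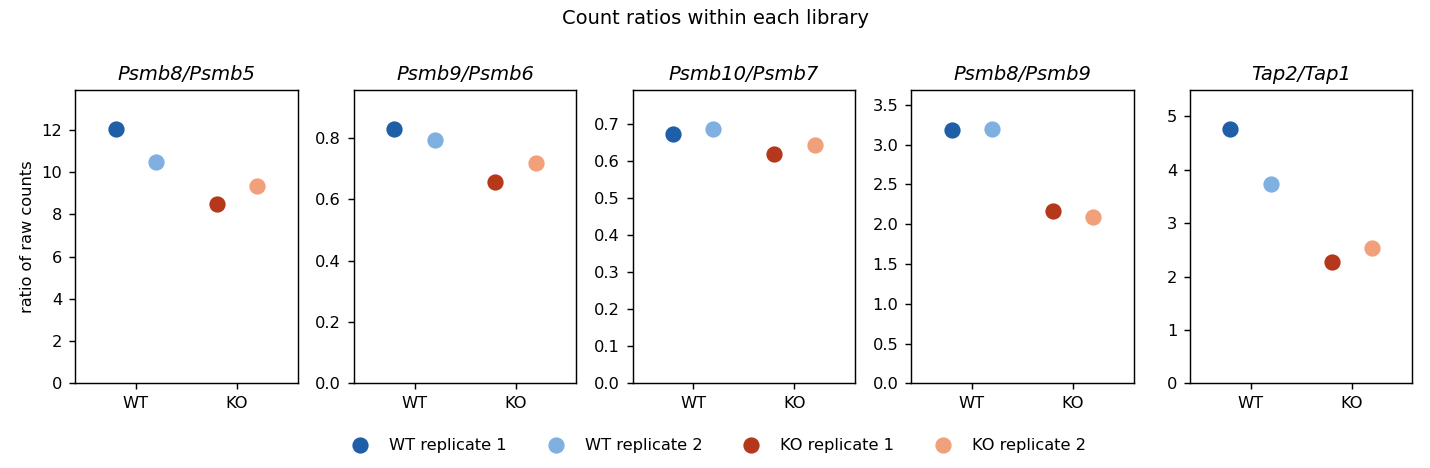
Ratios of raw counts of 2 genes within each library, on linear axes from 0, with 1 point per library. In each of the 5 ratios plotted, which leave out B2m to H2-K1, both KO points lie below both WT points, with the tightest replicates for Psmb8 to Psmb9 (3.18 and 3.20 in WT, 2.16 and 2.09 in KO).

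Psmb9, Tap1, Psmb8 and Tap2 sit in this order within 34292 bases of chromosome 17, inside the MHC class II region. Summed over the 4 genes, the level was 1044 and 892.6 CPM across WT, against 505.3 and 582.1 CPM across KO. Within 100 kb on either side of these genes 10 other genes were tested. Of these, 0 had both KO libraries below both WT libraries, 3 had them above and 7 overlapped, with a median log2 fold change of 0.13. Over all genes tested 19.1% lay below and 18.1% above, so that counts among 10 genes say little. The nearest neighbours on either side, H2-DMb1 and H2-Ob, which encode class II loading factors, stood at -0.0018 (SE 0.28) and -0.22 (SE 0.43) on the log2 scale. The classical class II genes H2-Ab1, H2-Aa and H2-Eb1, further along, had 2.49 (SE 1.22), 5.84 (SE 1.56) and 6.18 (SE 1.52). The size of these values rested on KO replicate 1, though KO replicate 2 also lay above both WT libraries for H2-Aa and H2-Eb1. Without KO replicate 1 H2-Aa had 2.70 and H2-Eb1 2.96. H2-Ab1 was at 17.3 CPM in WT replicate 2 and 17.7 CPM in KO replicate 2. The 100 kb window was chosen after the values of the 4 genes were known. The other members on chromosome 17 lie outside this block, namely H2-K1 and Tapbp on one side and H2-D1 on the other.

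**Figure D3:**
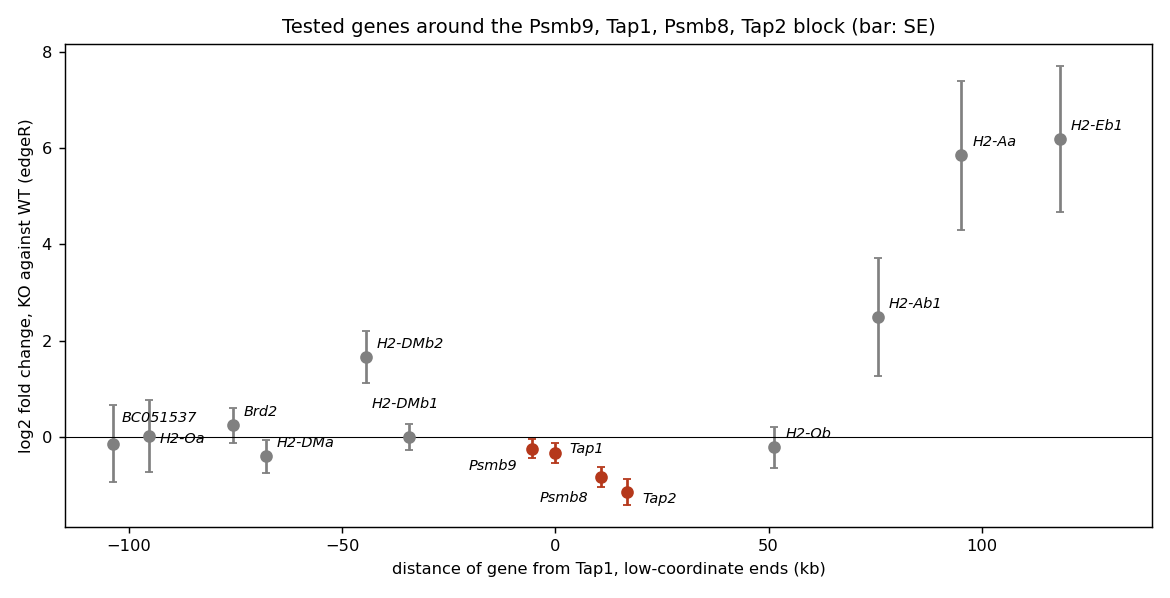
edgeR log2 fold change (KO against WT, bar: SE) of the 14 tested genes in and within 100 kb of the block, against distance from Tap1 in kb. The 4 block genes (red) lie between -1.14 and -0.24, and the flanking genes (grey) between -0.41 for H2-DMa and 6.18 for H2-Eb1, which is 2.96 without KO replicate 1.

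The class I molecule itself consists of a heavy chain and beta-2 microglobulin. B2m (chromosome 2, 122147687 to 122153082) had 364.2 and 401.1 CPM across WT, against 789.3 and 411.3 CPM across KO. KO replicate 1 stood far above the other 3 libraries, and KO replicate 2 exceeded WT replicate 2 by less than the WT libraries differed. The log2 fold change of 0.65 (SE 0.35) passed neither edgeR (adjusted p = 0.777) nor DESeq2 (adjusted p = 0.689), was 0.11 without KO replicate 1, and was 1.04 without KO replicate 2, where DESeq2 called it (adjusted p = 0.0132). The annotation places B2m wholly within the span of Patl2, which had 0 to 2 counts per library.

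H2-K1 (chromosome 17, 33996012 to 34000619), a classical heavy chain gene, had 364.9 and 433 CPM across WT, against 556.3 and 434.9 CPM across KO, where KO replicate 2 and WT replicate 2 were nearly equal. Its log2 fold change was 0.31 (SE 0.24), and 0.13 without KO replicate 1. H2-D1 (chromosome 17, 35263094 to 35267497), the other classical heavy chain gene of this strain, had 185.6 and 140.7 CPM across WT, against 299.8 and 156.8 CPM across KO, so that the groups overlapped. Its fold change of 0.48 (SE 0.36) turned to -0.055 without KO replicate 1. Neither gene passed edgeR or DESeq2. Class I heavy chain genes resemble each other closely, and reads that align to more than 1 place, which made up 26.1% to 33.1% of all counts, are tallied apart from the gene counts. The counts of H2-K1 and H2-D1 are therefore uncertain.

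Tapbp (chromosome 17, 33919478 to 33929290), the gene of tapasin, had 260.2 and 253 CPM across WT, against 289.9 and 242 CPM across KO, on both sides of WT. Its log2 fold change was 0.052 (SE 0.21), with -0.0084 under library sizes alone and -0.082 without KO replicate 1. Nlrc5 (chromosome 8, 94434335 to 94527272) had 111 and 24 counts in WT and 93 and 95 in KO, or 5.55, 1.27, 5.75 and 5.58 CPM. Only WT replicate 2 was low, and the other 3 libraries were nearly alike. The log2 fold change of 0.73 (SE 0.78) became 2.15 when WT replicate 1 was left out and 0.042 when WT replicate 2 was. Thus the fold change of the class I transactivator rested on 1 WT library.

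**Figure D4:**
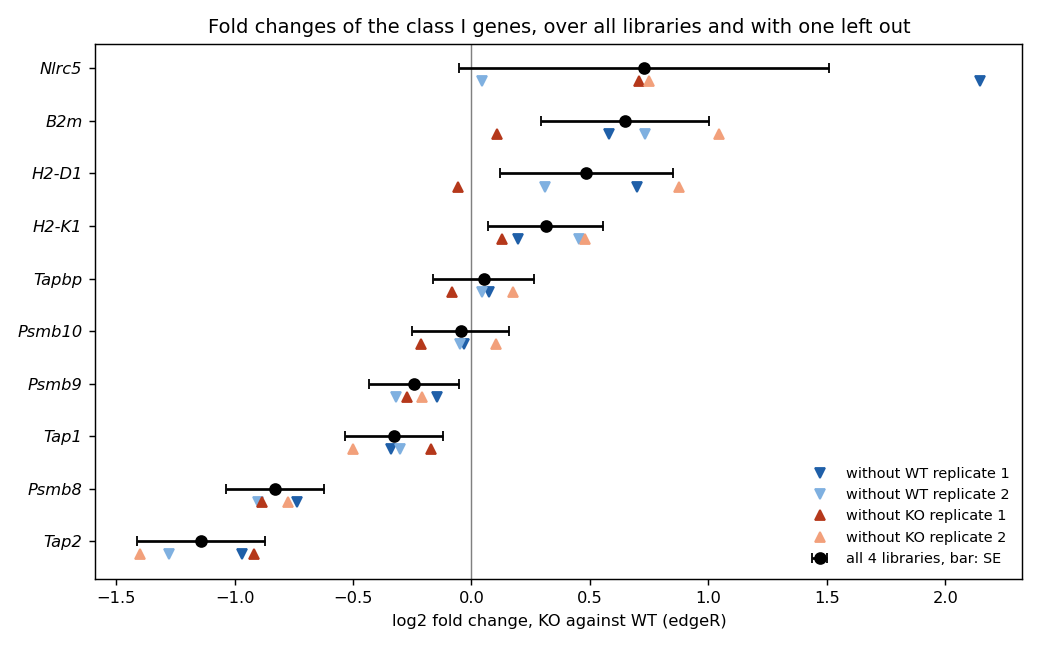
edgeR log2 fold changes (KO against WT) of the 10 genes with all 4 libraries (black, bar: SE, n = 2 per group) and with each library left out (triangles). Tap2 and Psmb8 stay at or below -0.74 in each fit, while B2m moves from 0.65 to 0.11 and H2-D1 from 0.48 to -0.055 without KO replicate 1.

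Other genes of the pathway were read from the same fit, by lists chosen from general knowledge. Of 19 loading chaperones and trimming peptidases 10 were above 0 and 9 below, with a median of 0.0062. Calr, the calreticulin gene, had 2148 and 2621 CPM across WT, against 1851 and 1730 CPM across KO (log2 fold change -0.41, SE 0.24), and Hspa5, the chaperone BiP, had 0.56 (SE 0.47). Of 20 genes of the constitutive proteasome core and its activators 19 were tested, with 10 above 0, 9 below and a median of 0.0011, which was -0.21 without KO replicate 1 and 0.11 without KO replicate 2. Psme1, an activator subunit that interferon gamma induces, had 0.061 (SE 0.20), and Psma6, a core subunit, had 0.038 (SE 0.26). In both lists edgeR, DESeq2 and voom called 0, with 1 and 0 genes at an unadjusted edgeR p under 0.05.

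Of 23 further class I and class I-like heavy chain genes only 10 were tested, and 6 had no count in any library (H2-Q6, H2-Q7, H2-T9, H2-M2, H2-M9 and H2-M10.1). The median was -0.37, with 4 above 0 and 6 below. It was -0.63 in DESeq2 and with no filter, -0.62 without KO replicate 2 and -0.24 without WT replicate 2. In this list edgeR, DESeq2 and voom called 0 (1 at an unadjusted edgeR p under 0.05). H2-T23, the gene of the nonclassical molecule Qa-1, had 95.5 and 188.4 CPM across WT, against 92.1 and 102.3 CPM across KO. H2-Q4 had 31.4 and 47.7 CPM across WT, against 70.0 and 33.8 CPM across KO and, like B2m, was highest in KO replicate 1.

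Interferon signalling genes and targets were also listed, since interferon induces the members. Of 11 receptor, kinase and feedback genes 5 were above 0 and 6 below, with a median of -0.0078. Ifngr1, a chain of the interferon gamma receptor, had -0.028 (SE 0.28), and the kinase gene Jak1 had -0.0078 (SE 0.29). Of 33 interferon targets outside the pathway 25 were tested, with 11 above 0, 14 below and a median of -0.17. That median was 0.14 in DESeq2, which keeps more of the scarce genes, and 0.038 without WT replicate 1 and 0.098 without KO replicate 2. Ifih1, a cytosolic RNA sensor, had 41.4 and 44.6 CPM across WT, against 35.8 and 33.8 CPM across KO, and Ifi35 had a log2 fold change of -0.39 (SE 0.23). In both lists edgeR, DESeq2 and voom called 0, with 0 and 1 genes at an unadjusted edgeR p under 0.05.

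Of 18 regulators of class I and class II transcription 13 were above 0 and 5 below, with a median of 0.15. In 7 of them both KO libraries exceeded both WT libraries, where 18.1% of all genes did. Ciita, the class II transactivator and a relative of Nlrc5, was the 1 member of the list that DESeq2 called (adjusted p = 4.07e-04), with 6 and 2 counts in WT and 162 and 47 in KO. edgeR called 0 of the list (1 at an unadjusted p under 0.05) and voom 0. DESeq2 no longer called Ciita without KO replicate 1 (adjusted p = 0.631).

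Of the 12 listed class II genes 8 were highest in KO replicate 1, 2 in WT replicate 1 and 2 in WT replicate 2. KO replicate 1 was also highest for 6 of the 10 members, B2m, H2-K1 and H2-D1 among them. So it was for 13 of the 20 constitutive proteasome and activator genes and 16 of the 31 interferon targets with any count. It was highest for 4 of 19 loading and trimming genes and 2 of 10 mature neutrophil genes. The share over all genes was not counted, so whether these counts are unusual cannot be told. Some margins were small, as for Nlrc5, at 5.75 CPM in KO replicate 1 and 5.58 CPM in KO replicate 2. Of the 12 class II genes 8 were above 0 by log2 fold change and 4 below. Both KO libraries lay above both WT libraries for 5 of them and below for 0, and the groups overlapped for 7. Over all genes tested 18.1% lay above and 19.1% below. Summed over the 12 listed class II genes, the level was 334.3 and 306.4 CPM in WT, 2158 CPM in KO replicate 1 and 335.2 CPM in KO replicate 2. In KO replicate 1 Cd74, H2-Aa, H2-Eb1 and H2-Ab1 made up 1768 CPM of it, and the other 8 genes summed to 390.2 CPM there and to 219.3 to 295 CPM elsewhere. Cd74, the invariant chain that guides class II molecules, had 2.45 and 7.96 CPM across WT, against 820.6 and 58.7 CPM across KO. The list's median log2 fold change, 0.84 over all libraries, was -0.30 without KO replicate 1. Of its members DESeq2 called Cd74, H2-Eb1 and H2-Aa as higher, while edgeR called 0 (5 at an unadjusted p under 0.05) and voom 0. Without WT replicate 1 DESeq2 lost all 3 (adjusted p = 0.294, 0.429 and 0.611). It also lost H2-Eb1 and H2-Aa without WT replicate 2 (adjusted p = 0.139 and 0.0941) and H2-Aa without KO replicate 1 (adjusted p = 0.150).

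Markers of antigen-presenting cells were read in each library beside these values. The 11 dendritic cell markers summed to 687.5 and 493.8 CPM across WT, against 538.7 and 539.4 CPM across KO, a sum led by Cst3 and Flt3. Of these 11, 6 were highest in KO replicate 1 (such as Cd209a, at 6.13 CPM there and at most 0.059 CPM elsewhere), 2 in WT replicate 1 (such as Batf3, at 16.96 CPM there), 2 in WT replicate 2 (such as Clec10a, at 22.1 CPM there) and 1 in KO replicate 2. Of the 6 tested 1 was above 0 and 5 below, and edgeR, DESeq2 and voom called 0, with 0 at an unadjusted edgeR p under 0.05. The 11 macrophage markers summed to 272.3 and 332.9 CPM across WT, against 457.2 and 370.3 CPM across KO. Of the 10 with any count 7 were highest in KO replicate 1 and 1 in each other library. C1qb was at 4.145 CPM in KO replicate 1 and at most 0.10 CPM elsewhere. Mrc1 was at 4.02 CPM there and at most 0.27 CPM elsewhere. Both were too scarce to be tested by edgeR. Of the 6 tested 4 were above 0 and 2 below. DESeq2 called Csf1r and Vcam1 as higher, while Cd68 was at 150.5 and 133 CPM in WT but 96.1 and 84.8 CPM in KO and passed neither edgeR nor DESeq2. The 12 T and NK cell markers summed to 104.1 and 69.7 CPM across WT, against 96.1 and 135.9 CPM across KO, nearly all of it Nkg7, and 10 were under 1 CPM in every library. Lck had 89 and 68 counts in WT and 7 and 22 in KO and passed neither edgeR nor DESeq2. The summed level of 10 mature neutrophil genes was 850.9 and 3952 CPM across WT, against 12920 and 18410 CPM across KO, higher in both KO libraries, and DESeq2 called 4 of the 10 as higher (S100a8, S100a9, Ngp and Lcn2). The 9 stromal and endothelial markers summed to 350.7 and 301.9 CPM across WT, against 78.3 and 171.8 CPM across KO. That sum was nearly all Pecam1 and Pdgfrb, the latter called lower by DESeq2 (adjusted p = 0.00234). Cdh5 and Kdr, which mark endothelium, were at or near 0, and 6 of the 9 were under 1 CPM in every library. Col1a1 went the other way, at 0.25 and 0.16 CPM in WT against 0.31 and 2.0 CPM in KO. Of these marker calls, Vcam1 held in all 4 DESeq2 fits that lacked a library. Csf1r (adjusted p = 0.565 and 0.366) and Pdgfrb (adjusted p = 0.271 and 0.0514) were lost when WT replicate 1 or KO replicate 1 was dropped. S100a8, S100a9 and Ngp were lost when either KO library was dropped, and Lcn2 when WT replicate 1 or KO replicate 2 was (adjusted p = 0.0976 and 0.174). Across the groups the sum led by Pecam1 and Pdgfrb was thus lower in KO and the neutrophil sum was higher. The class II sum was highest in the library where B2m was. Their part in the class I values was not tested.

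**Figure D5:**
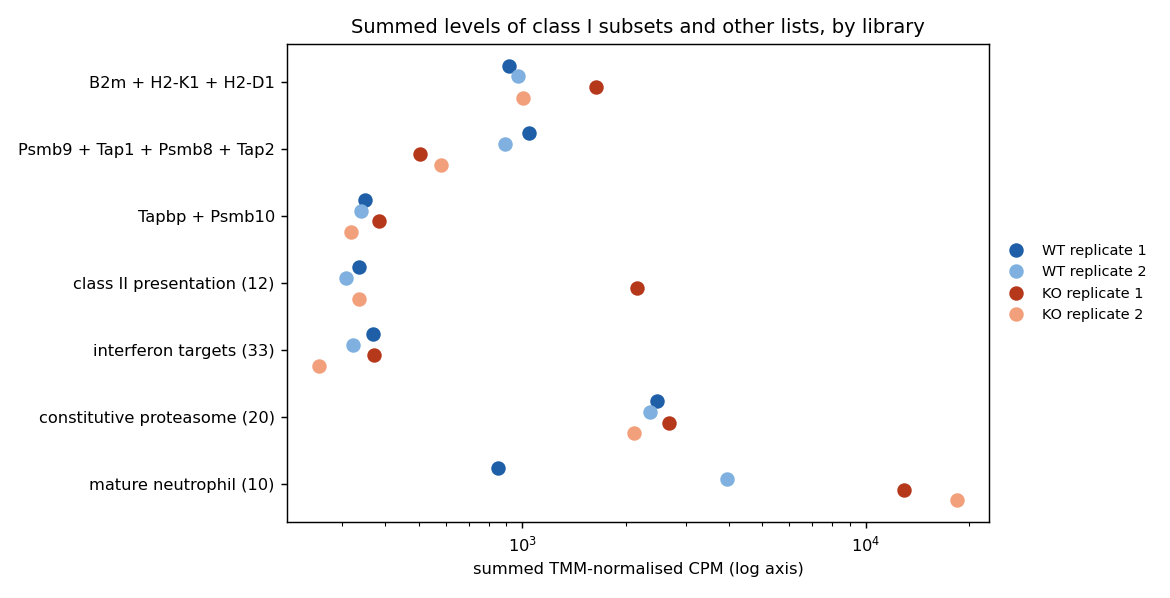
Summed TMM-normalised CPM, on a log axis, of 3 subsets of the members and of 4 other gene lists (number of genes in parentheses), with 1 point per library. B2m with the heavy chains and the class II genes are highest in KO replicate 1 (1645 and 2158 CPM), and the block of Psmb9, Tap1, Psmb8 and Tap2 is lower in both KO libraries (505.3 and 582.1 CPM).

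All 10 members together summed to 2312 and 2208 CPM across WT, against 2540 and 1908 CPM across KO, so that the KO libraries lay on either side of WT. Averaged over the members, the centred log2 CPM was 0.14 and -0.11 in WT and 0.094 and -0.13 in KO, with replicate 1 above replicate 2 in both groups. Nlrc5, at -1.34 in WT replicate 2, carried the negative value there, and over the other 9 members the means were 0.11 and 0.029 in WT and 0.052 and -0.19 in KO. Among 10089 other genes of at least 5 CPM, 2510039O18Rik, Parp2, Eif4a3, Aamdc and Yif1b came nearest to the mean profile of all 10, at root mean square distances of 0.017 to 0.020 over the 4 libraries. That profile, and so these 5 names, rest in part on the 24 counts of Nlrc5 in WT replicate 2.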

How the data were processed

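RNA-seq counts were read from 4 libraries (2 WT, 2 KO). The authors deposited raw counts per gene symbol, 1 table per library. The submitters' processing notes list HTSeq, STAR 2.3.0, Picard, MACS2 and Bowtie2 2.2.5, with no roles, and the build mm10. Neither annotation nor strand setting is given there. Reads of overlapping genes could therefore be mixed. The last 5 rows of each table, which tally reads outside genes or not uniquely placed (69.4% to 72.4% of all counts), were left out. Gene counts came to 16006081 to 19286090 per library, which limits scarce genes such as Nlrc5.

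Genes were kept by filterByExpr (12623 of 24421), scaled by TMM and tested, KO against WT, with edgeR 4.0.16 (quasi-likelihood F-test, robust, no covariate, Benjamini-Hochberg over all genes, threshold 0.05) in R 4.3.3. The SE is the fold change's size over the square root of F. DESeq2 1.42.0 and voom in limma 3.58.1 were alternatives, as were other scalings and filters, a block on the replicate number and leaving out each library. Leaving out libraries in DESeq2 and the sides under each scaling were added after seeing the data. The spacing of X2 core and Y box was counted after the motif positions of the members were seen. The scripts were tested on simulated data. All 10 members are named. From other lists, called genes are named, or else the 2 of highest mean CPM. Chosen after their values were seen were Kit, Hoxa9, Xist, Ddx3y, Cd209a, Batf3, Clec10a, Cd68, C1qb and Mrc1. So were Lck, Nkg7, Cdh5, Kdr, Pecam1, Col1a1, Patl2 and the genes in the 100 kb window. Some list genes and 1 motif are not reported here. Members and lists were chosen with earlier results of these data known. Coordinates and sequences are from GRCm38.p6, the assembly mm10 names, matched by symbol (10 of 10 members for coordinates, 8 for promoters).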

Additional observations from a re-analysis of the deposited data

How the results depend on the processing

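No member passed edgeR at an adjusted p of 0.05 under any of the 4 scalings and filters, in voom, with the replicate block or with a library left out. The number of genes edgeR called, 0 over all libraries, was 4 with no filter and 11 with the replicate block, and from 0 to 156 with a library left out, where a lone library is assumed to vary like the other group. The 50 without WT replicate 1 and 156 without WT replicate 2 made up that range's upper values. DESeq2 called 352 genes over all libraries and 381 with the replicate block. With a library left out that number fell in some fits and rose in others. The labels tie replicate numbers to nothing shared, and the deviations of same-numbered libraries correlated at 0.199 over 12623 genes. With the replicate block in DESeq2, Tap2 kept its call (adjusted p = 0.00906) and Psmb8 lost it (adjusted p = 0.0893). By edgeR the block gave Tap2 -1.15 (adjusted p = 0.218) and Psmb8 -0.83 (adjusted p = 0.251). It gave the median over the members as -0.0043 and left the log2 ratios of Psmb8 to Psmb5, Psmb9 to Psmb6 and Psmb10 to Psmb7 at -0.34, -0.24 and -0.11, as both take the same means.

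Signs turned for 3 members, none of which passed a test. H2-D1 was at -0.055 without KO replicate 1 (up to 0.88 in the other such fits), or -0.046 to 0.88 by DESeq2. Tapbp was at -0.0084 under library sizes alone and from -0.082 to 0.18 with a library left out, or -0.073 to 0.18 by DESeq2. Psmb10 ran from -0.21 to 0.10, or -0.20 to 0.11 by DESeq2. The median over the members ran from -0.13 to 0.14 with a library left out. Tap2, Psmb8, Tap1 and Psmb9 stayed below 0 in all 11 alternatives each, and the causes of the changes were not tested.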
